A study of Mus musculus with 12 samples.

Results

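The T cell receptor beta variable segments of the mouse, the Trbv genes, were followed through RNA-seq libraries of thymic invariant natural killer T (iNKT) cells. They were taken as every gene whose symbol in the GENCODE M21 annotation begins with Trbv. There were 35 such genes among the 48672 gene IDs counted, and all 35 had a row in the count tables. The annotation called 22 of them functional variable genes and 13 pseudogenes. They lie on chromosome 6 between 40891229 and 41558452 (GRCm38, the same build as mm10).

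A beta chain is assembled in each developing T cell by joining 1 variable, 1 diversity and 1 joining segment, and the joined exon is spliced to a constant segment, Trbc1 or Trbc2. The segment a cell has joined is transcribed with its chain. The Trbv counts of a sorted population therefore reflect, in part, which variable segments its cells use and how much receptor RNA each cell holds. Segments annotated as pseudogenes held up to 43.6% of the Trbv counts of a library, so a share is not a measure of receptor usage alone. Mouse iNKT cells pair a nearly fixed alpha chain, Trav11 joined to Traj18, with a beta chain drawn mostly from the Trbv13 family, Trbv29 or Trbv1, and this receptor recognises lipids presented by CD1d. In bulk RNA fewer cells that use a segment and less RNA per cell cannot be told apart.

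The cells came from thymi of C57Bl/6J mice aged 4 to 5 weeks that received no treatment, and 4 to 7 mice were pooled. They were sorted as tetramer-binding, TCRb-positive cells that were CD24- CD44- (stage 1) or CD24+ CD44- (stage 0). Each stage was taken from mice labelled Bcl6KO, given in the labels as CDCre;Bcl6F/F (a Cre transgene with floxed Bcl6 alleles), and from WT mice. There were 3 libraries in each of the 4 groups, Bcl6KO stage 1, WT stage 1, Bcl6KO stage 0 and WT stage 0. The labels name no Cre driver beyond this, and do not say whether each library had its own pool of mice. A p-value here therefore weighs a difference against library-to-library spread, which may be technical.

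Library totals ran between 4129919 and 8038717 counts. Bcl6 was counted at 14.7, 56.1 and 25.2 CPM (counts scaled to the normalised library size) in libraries labelled Bcl6KO stage 1, against 8.77, 4.15 and 8.62 CPM in WT stage 1. It stood at 510.9, 657.1 and 652.1 CPM in libraries labelled Bcl6KO stage 0, against 372.7, 216.6 and 275.2 CPM in WT stage 0. Bcl6 was counted over its full length and the labels do not name the floxed exons, so these values test neither the deletion nor the label. All 7 iNKT markers examined, among them Zbtb16, Trav11 and Traj18, were counted in every group. The Bcl6KO stage 0 libraries stood apart: Sp100 alone took 10.8%, 23.9% and 17.9% of their counts, against 0.0289% to 5.03% in WT stage 0, and they had the fewest genes detected (16287 ± 1437 against 19770 ± 1649, SD, n = 3 each).

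The 3 Trbv13 genes are shown first because of their counts and because they are close relatives whose reads must be told apart. Together they held 46.1% of the Trbv counts on average over the 12 libraries (24.1% to 66.7%). Their second exons, which encode nearly all of the variable domain, are each 294 bases long and come from the GENCODE M21 transcripts on GRCm38. In Trbv13-1 and Trbv13-3 capitals mark bases that differ from Trbv13-2, and in Trbv13-2 they mark the 49 positions at which the 3 genes are not all the same. The exons stand at chr6:41116175-41116468 (Trbv13-1), chr6:41121539-41121832 (Trbv13-2) and chr6:41130292-41130585 (Trbv13-3), all on the plus strand.
Trbv13-1: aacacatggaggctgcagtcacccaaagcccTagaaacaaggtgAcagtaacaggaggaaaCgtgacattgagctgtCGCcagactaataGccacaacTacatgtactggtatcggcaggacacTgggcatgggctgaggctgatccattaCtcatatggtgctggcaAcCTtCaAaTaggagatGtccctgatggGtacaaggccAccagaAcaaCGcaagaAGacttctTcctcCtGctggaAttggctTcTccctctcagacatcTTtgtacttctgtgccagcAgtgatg
Trbv13-2: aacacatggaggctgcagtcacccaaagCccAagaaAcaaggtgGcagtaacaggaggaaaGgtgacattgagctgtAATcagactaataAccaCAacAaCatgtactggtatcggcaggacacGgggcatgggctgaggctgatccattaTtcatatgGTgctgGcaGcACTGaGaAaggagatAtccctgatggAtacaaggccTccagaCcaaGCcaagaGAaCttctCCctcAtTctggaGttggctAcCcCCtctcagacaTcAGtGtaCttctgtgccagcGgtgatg
Trbv13-3: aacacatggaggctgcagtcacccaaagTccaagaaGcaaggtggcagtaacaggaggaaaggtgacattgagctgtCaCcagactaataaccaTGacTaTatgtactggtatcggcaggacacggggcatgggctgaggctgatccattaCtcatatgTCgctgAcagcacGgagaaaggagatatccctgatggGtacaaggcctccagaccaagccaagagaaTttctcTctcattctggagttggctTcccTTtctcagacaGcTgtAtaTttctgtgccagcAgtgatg

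Trbv13-3 and Trbv13-2 shared 91.8% of these bases, with 24 differences and a longest identical run of 50 bases. Trbv13-1 and Trbv13-2 shared 88.8%, with 33 differences and a longest run of 31, and Trbv13-1 and Trbv13-3 shared 86.1%, with 41 differences. Of the 50-base stretches in the transcripts, 1 of 291 (0.344%) was common to Trbv13-2 and Trbv13-3, and none of Trbv13-1 recurred in another Trbv gene. Among the other members only Trbv12-2 and its pseudogene neighbour Trbv12-3 shared any, 4 stretches each. The treatment of reads that match several genes is not stated in the labels, and small counts within the Trbv13 family carry that uncertainty.

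A variable segment ends just after a conserved cysteine, and the bases beyond it form the start of the CDR3, the loop in which segments are joined. The ends of the most counted segments of the other families are given beside that of Trbv13-2, since these are segments that the counts below set against one another. Capitals mark the cysteine codon.
Trbv13-2: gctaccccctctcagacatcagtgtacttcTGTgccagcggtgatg
Trbv29: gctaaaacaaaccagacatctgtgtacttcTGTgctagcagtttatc
Trbv1: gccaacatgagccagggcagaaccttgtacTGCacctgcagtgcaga
Trbv2: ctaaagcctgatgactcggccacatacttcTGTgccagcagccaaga
Trbv12-2: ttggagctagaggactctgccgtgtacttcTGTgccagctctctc

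They stand at chr6:41121787-41121832, chr6:41271835-41271881, chr6:40891839-40891885, chr6:41047949-41047995 and chr6:41119320-41119364, in the order shown, on the plus strand of GRCm38. Trbv1, at the 5′ edge of the locus, spells the cysteine with another codon than the other 4 and lies 155.5 kb from Trbv2. Trbv31, which lies 275.7 kb beyond Trbv30 on the minus strand, is joined by inversion.

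Counts on the 35 genes were few beside those on the constant segments. Per library they summed to 618, 649 and 365 in Bcl6KO stage 1, 646, 374 and 222 in WT stage 1, 1253, 532 and 1082 in Bcl6KO stage 0 and 622, 1005 and 757 in WT stage 0. There were 4.66 to 9.31 Trbv counts per 100 Trbc counts, and per kilobase of exon the Trbv genes together reached 8.96% to 20.4% of Trbc1 and Trbc2. On the CPM scale the Trbv sum was 108.2 ± 30.8 in Bcl6KO stage 1, 82.7 ± 42.3 in WT stage 1, 188.0 ± 77.7 in Bcl6KO stage 0 and 156.8 ± 37.7 in WT stage 0 (SD, n = 3 each). Every pair of groups overlapped. A segment with a count of 0 may hold a share of up to 0.239% to 1.35% of the Trbv counts, depending on the library (3 counts of the total). These libraries carry no molecular identifiers, so such limits and the intervals below cover counting error only.

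Of the 35 genes, 10 had no count in any of the 12 libraries. These were 9 pseudogenes (Trbv6, Trbv7, Trbv8, Trbv9, Trbv10, Trbv18, Trbv25, Trbv27 and Trbv28) and Trbv21. In contrast, 5 were counted in all 12 libraries: Trbv13-2, Trbv13-1, Trbv29, Trbv12-2 and Trbv2. Trbv13-2 was the most counted segment in 8 of 12 libraries, and Trbv12-2, Trbv1, Trbv11 and Trbv31 led in 1 library each. Divided by exon length, so that genes can be compared, the mean share over 12 libraries was 38.3% for Trbv13-2, 13.4% for Trbv12-2, 9.62% for Trbv29, 7.95% for Trbv13-1 and 7.00% for Trbv1. On the same scale Trbv11 followed with 6.34%, Trbv2 with 4.76%, Trbv31 with 4.28%, Trbv13-3 with 2.68% and Trbv19 with 1.45%. Trbv13-2 ran between 15.6% and 56% over libraries and overlapped others, among them Trbv12-2 with up to 38.2%. Below Trbv13-2 the ranges overlapped for every pair of these segments. The order is that of the means alone.

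**Figure D1:**
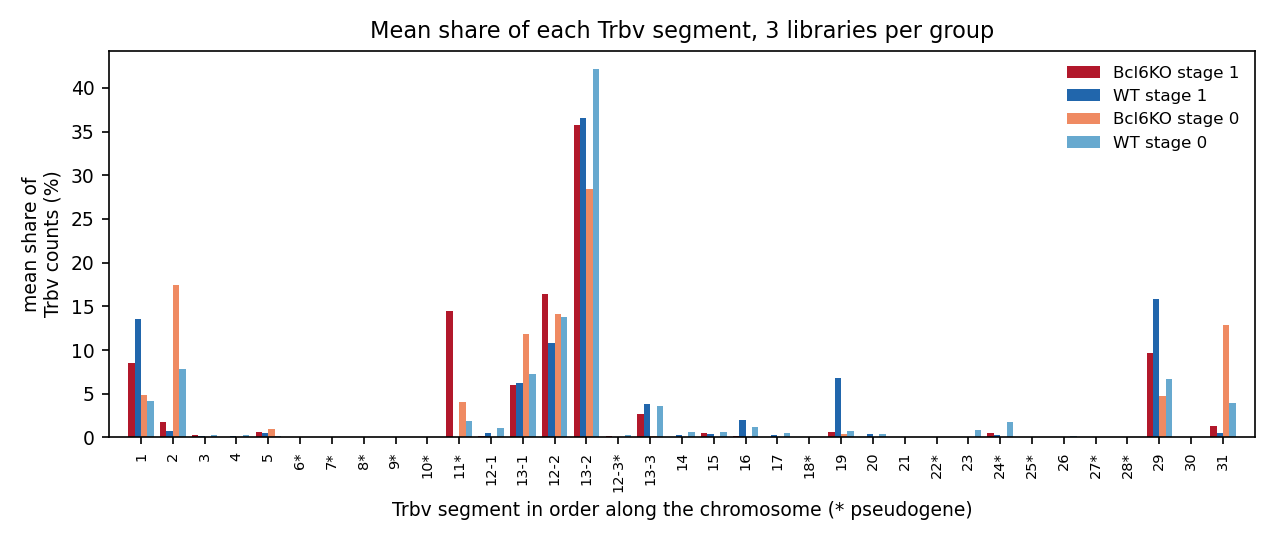
Mean share of all Trbv counts (percent, y axis) for each of the 35 Trbv segments in chromosomal order (x axis, asterisk for a pseudogene), with a bar for each group of 3 libraries. Trbv13-2 has the tallest bar in every group, and most segments stand at or near 0.

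The other 15 counted genes (Trbv3, Trbv4, Trbv5, Trbv12-1, Trbv12-3, Trbv14, Trbv15, Trbv16, Trbv17, Trbv20, Trbv22, Trbv23, Trbv24, Trbv26 and Trbv30) were minor. Together they held between 0.399% and 14.7% of a library's Trbv counts. The highest single value was that of Trbv16, 4.03% in 1 WT stage 1 library. For Trbv4 and Trbv5 75.1% and 79.3% of exonic bases also lie in another annotated gene, so part of their counts may belong to it.

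Trbv13-2, a segment of the Trbv13 family that iNKT receptors use most, held 42.2%, 29.3% and 35.9% of Trbv counts in Bcl6KO stage 1 and 36.5%, 20.1% and 53.2% in WT stage 1. At stage 0 it held 27.2%, 12.8% and 45.3% in Bcl6KO and 46.1%, 33.1% and 47.2% in WT. The groups overlapped in every comparison, and the SD within Bcl6KO stage 0 (16.3 points) and within WT stage 1 (16.5 points) exceeded the difference between any pair of group means. The share averaged 32.1 ± 11.8% in Bcl6KO and 39.4 ± 12% in WT libraries (SD, n = 6 each; exact permutation test within stages, two-sided, p = 0.345, adjusted over 5 segments p = 0.431). Between stages the means were 36.2 ± 11.2% at stage 1 and 35.3 ± 13.7% at stage 0 (SD, n = 6 each; exact permutation p = 0.91). Within the family, Trbv13-2 took 79.9% to 80.9% of the Trbv13 counts in Bcl6KO stage 1, 74.7% to 83.3% in WT stage 1 and 77.8% to 81.5% in WT stage 0, but 66.5%, 53.1% and 80.9% in Bcl6KO stage 0.

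**Figure D2:**
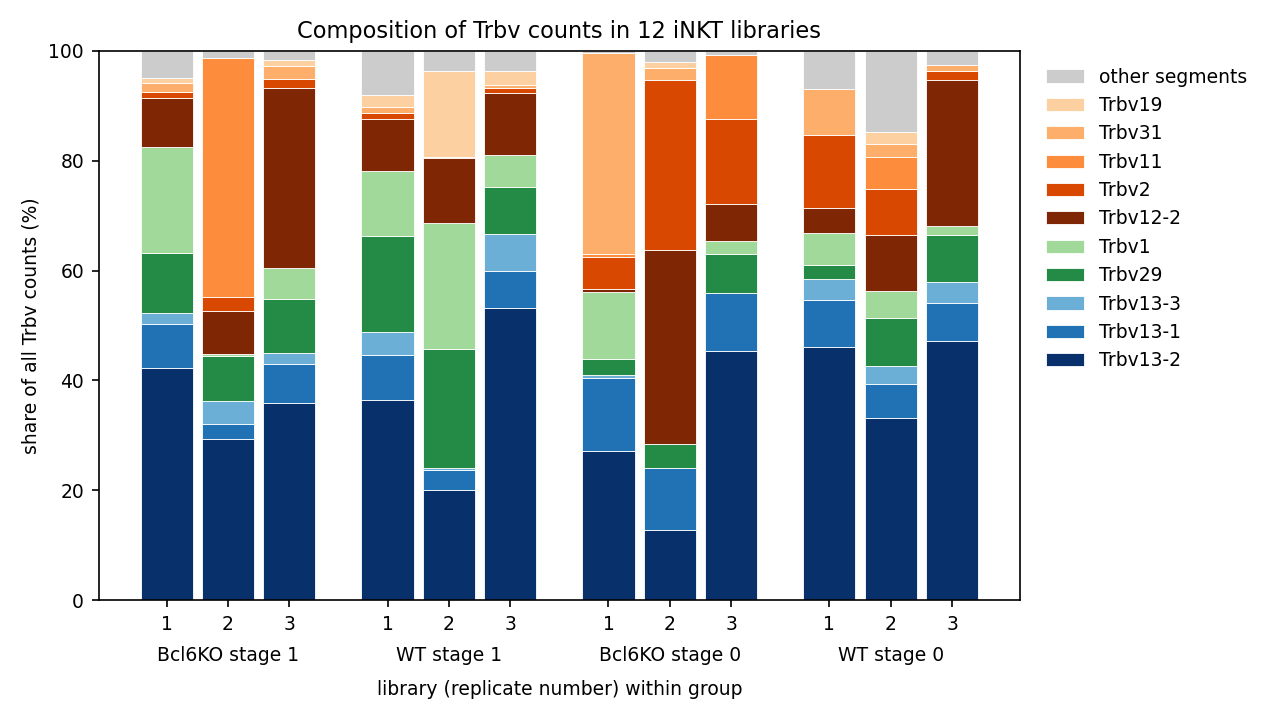
Share of all Trbv counts (percent, y axis) of the 10 leading segments and of all others together in each of the 12 libraries (x axis, by group). Blue and green parts are the iNKT-typical segments and brown to orange parts the other leading segments. Trbv11 in Bcl6KO stage 1 library 2 and Trbv31 in Bcl6KO stage 0 library 1 fill 43.5% and 36.6% of their bars.

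Trbv13-1, the family member nearest the 5′ edge, held 13.3%, 11.3% and 10.7% in Bcl6KO stage 0, against 8.52%, 6.27% and 6.87% in WT stage 0. These groups did not overlap. Trbv13-3, the last of the family, was counted 5, 0 and 0 times in Bcl6KO stage 0, shares of 0.399%, 0% and 0%, against 24, 32 and 29 counts or 3.86%, 3.18% and 3.83% in WT stage 0. A count of 0 allows a share of up to 0.564% and 0.277% in the 2 Bcl6KO libraries without a count, so every Bcl6KO stage 0 library lay below every WT one. The differences were 4.56 percentage points for Trbv13-1 and -3.49 for Trbv13-3, each with an exact permutation p of 0.1, the smallest that 3 against 3 libraries can give (two-sided, adjusted over 5 segments p = 0.25).

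At stage 1 the genotypes overlapped for both segments. Trbv13-1 held 8.09%, 2.77% and 7.12% in Bcl6KO stage 1 and 8.05%, 3.74% and 6.76% in WT stage 1. Trbv13-3 held 1.94%, 4.16% and 1.92% in Bcl6KO stage 1, against 4.33%, 0.267% and 6.76% in WT stage 1, where the lowest share rests on 1 count. Averaged over both stages the genotype difference was 2.18 points for Trbv13-1 (exact permutation p = 0.15) and -2.30 for Trbv13-3 (p = 0.075), and both had an adjusted p of 0.25. For Trbv13-3 the level itself, in CPM, gave a log2 fold change of -3.98 (SE 1.60) for Bcl6KO against WT at stage 0 and 0.05 (SE 1.40) at stage 1. Neither passed the threshold in edgeR (quasi-likelihood test, p adjusted by Benjamini-Hochberg over all genes, 0.284 and 1), nor did the difference between the stages (4.03, SE 2.08, adjusted p = 0.678).

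Trbv29, a segment of another family that iNKT receptors also use, had its higher shares mostly at stage 1. It held 11%, 8.17% and 9.86% in Bcl6KO stage 1 and 17.3%, 21.7% and 8.56% in WT stage 1. Its stage 0 shares were 3.03%, 4.32% and 6.93% in Bcl6KO and 2.57%, 8.76% and 8.59% in WT. In Bcl6KO the stages did not overlap, while in WT the lowest stage 1 library lay just below the 2 highest of stage 0. The mean was 12.8 ± 5.48% at stage 1 and 5.70 ± 2.76% at stage 0 (SD, n = 6 each), a difference of 7.06 points (exact permutation test within genotypes, two-sided, p = 0.015, adjusted over 5 segments p = 0.075). It missed the threshold after adjustment. The level of Trbv29 in CPM differed by 0.28 on the log2 scale between stages (SE 0.66, edgeR adjusted p = 0.883).

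Trbv13-1 differed in the opposite direction, with 6.09 ± 2.27% at stage 1 and 9.50 ± 2.74% at stage 0 (SD, n = 6 each; difference -3.41 points, exact permutation p = 0.03, adjusted p = 0.075). Its difference was larger in Bcl6KO, -5.78 points, than in WT, -1.04 points, a contrast that was not itself tested. Leaving out 1 library moved the unadjusted p of Trbv13-1 between 0.02 and 0.08, and that of Trbv29 between 0.005 and 0.045.

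Trbv1, the third iNKT-typical family, varied widely between libraries. It held 19.3%, 0.462% and 5.75% in Bcl6KO stage 1 and 11.9%, 23.0% and 5.86% in WT stage 1, against 12.2%, 0% and 2.50% in Bcl6KO stage 0 and 5.79%, 4.98% and 1.72% in WT stage 0. In WT the stages did not overlap (exact permutation p = 0.1, the smallest possible), by 5.86% against 5.79% where they came closest, while in Bcl6KO they did. The WT stages did overlap on shares scaled by length (5.03% against 5.21%) and with functional segments only (exact permutation p = 0.2 in both). Over both genotypes it averaged 11.04 ± 8.69% at stage 1 and 4.53 ± 4.32% at stage 0 (SD, n = 6 each; exact permutation p = 0.15).

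**Figure D3:**
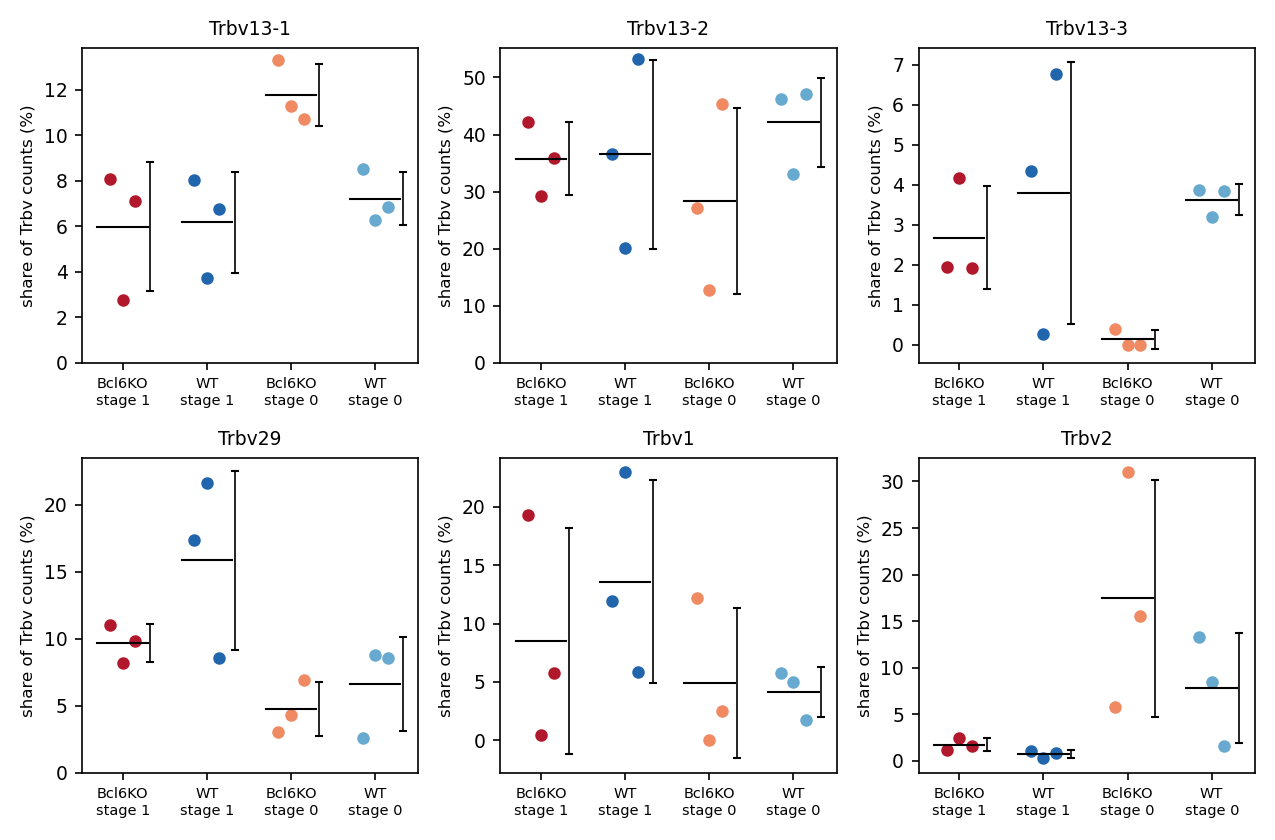
Share of all Trbv counts (percent, y axes, scaled separately) of 6 segments in each library, by group (x axes). Points are libraries, horizontal lines group means and whiskers 1 SD of 3 libraries. Trbv13-1 is higher and Trbv13-3 lower in Bcl6KO stage 0 than in WT stage 0 without overlap. Trbv2 is low in all 6 stage 1 libraries and also in WT stage 0 library 3.

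Summed, the 5 iNKT-typical segments held 82.5%, 44.8% and 60.5% of Trbv counts in Bcl6KO stage 1 and 78.2%, 68.7% and 81.1% in WT stage 1. At stage 0 they held 56.2%, 28.4% and 65.4% in Bcl6KO and 66.9%, 56.3% and 68.2% in WT. The exact Clopper-Pearson 95% interval of the lowest of these, Bcl6KO stage 0 library 2, was 24.6% to 32.4%, and that of the highest, Bcl6KO stage 1 library 1, was 79.3% to 85.4%. Group means were 62.6 ± 18.9%, 76.0 ± 6.47%, 50 ± 19.3% and 63.8 ± 6.50% in Bcl6KO stage 1, WT stage 1, Bcl6KO stage 0 and WT stage 0 (SD, n = 3 each). The WT stage 1 libraries all lay above the WT stage 0 libraries, by 68.7% against 68.2% where they came closest, whereas the Bcl6KO stages overlapped, and so did the genotypes at each stage. With the pseudogenes left out of the denominator the means became 74.8 ± 12.6%, 76.2 ± 6.17%, 53.0 ± 23.0% and 66.3 ± 4.75% in the same order. The WT stages then overlapped, with a lowest stage 1 value of 69.3% against a highest stage 0 value of 69.6%. On shares scaled by length they did not overlap (lowest stage 1 value 73.1%, highest stage 0 value 71.9%).

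**Figure D4:**
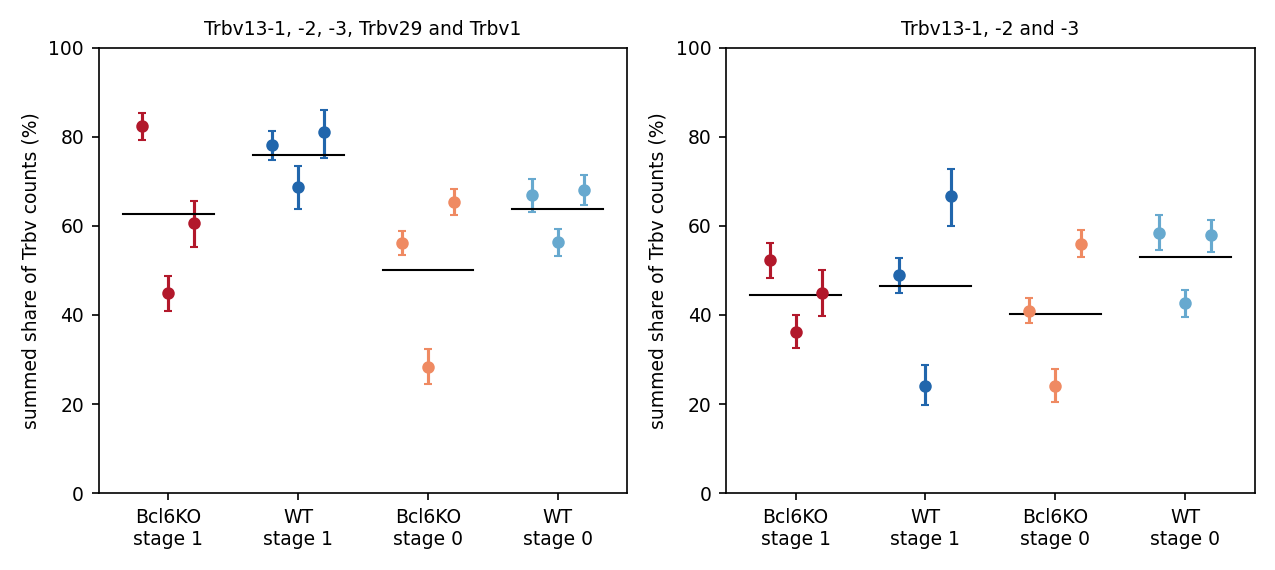
Summed share of Trbv counts (percent, y axes) for the 5 iNKT-typical segments (left) and for the Trbv13 family alone (right), by group (x axes). Points are libraries with exact 95% binomial intervals and lines are group means. The WT libraries stay between 56.3% and 81.1% on the left, while the Bcl6KO libraries spread from 28.4% up to 82.5%.

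Among the other segments, several were high in 1 library of a group and at or near 0 in another. Trbv11, a pseudogene, had 282 of 649 Trbv counts (43.5%) in Bcl6KO stage 1 library 2 and 0 in the other 2 libraries of that group. It had 8, 0 and 125 counts in Bcl6KO stage 0 and 0, 57 and 0 in WT stage 0, and none in WT stage 1. Trbv31 had 458 counts (36.6%) in Bcl6KO stage 0 library 1, against 11 and 0 in the other 2 libraries of its group and 52, 24 and 8 in WT stage 0. At stage 1 it had at most 10 counts in any library.

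Trbv12-2, a functional gene between Trbv13-1 and Trbv13-2, held 8.90%, 7.86% and 32.6% in Bcl6KO stage 1 and 9.44%, 11.8% and 11.3% in WT stage 1. It held 0.399%, 35.3% and 6.65% in Bcl6KO stage 0, against 4.50%, 10.2% and 26.6% in WT stage 0. The Bcl6KO stage 0 libraries alone span the values of the other 3 groups. Trbv19 had 5, 0 and 4 counts in Bcl6KO stage 1 and 14, 58 and 6 in WT stage 1, and these did not overlap. At stage 0 it was counted in only 1 library of each genotype, 6 times in Bcl6KO and 23 times in WT.

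The number of segments with a count was lowest in Bcl6KO stage 0, at 11, 8 and 9, against 14, 23 and 16 in WT stage 0, although the Bcl6KO libraries had 532 to 1253 Trbv counts and the WT libraries 622 to 1005. At stage 1 there were 17, 11 and 12 segments in Bcl6KO and 20, 14 and 13 in WT. When each library is reduced to 222 Trbv counts, the fewest in any, the expected number was 8.31 ± 0.441 in Bcl6KO stage 0 and 14.96 ± 4.31 in WT stage 0 (SD, n = 3 each), still without overlap. The lower number of genes detected and the high Sp100 share of the same libraries, given above, moved with this difference, and their part in it was not tested. The effective number of segments, which weights each by its share, did not separate these groups (4.89 to 5.15 in Bcl6KO stage 0 and 4.75 to 11.1 in WT stage 0).

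Trbv2 was the 1 segment whose level changed past the threshold. It stood at 1.39, 3.18 and 1.20 CPM in Bcl6KO stage 1 and 1.40, 0.197 and 0.410 CPM in WT stage 1, against 14.6, 31.3 and 33.1 CPM in Bcl6KO stage 0 and 16.5, 16.7 and 2.36 CPM in WT stage 0. Each stage 1 library lay below each stage 0 library of its genotype. Across genotypes the stages overlapped, as WT stage 0 library 3 (2.36 CPM) lay below Bcl6KO stage 1 library 2 (3.18 CPM). Averaged over both genotypes Trbv2 fell by 3.93 on the log2 scale at stage 1 (SE 0.79, edgeR adjusted p = 0.0172). Within a genotype the change was -3.76 (SE 1.09, edgeR adjusted p = 0.119) in Bcl6KO and -4.10 (SE 1.13, adjusted p = 0.209) in WT, and the difference between the 2 was 0.34 (SE 1.32, adjusted p = 0.987). As a share of Trbv counts it was 1.13%, 2.47% and 1.64% in Bcl6KO stage 1 and 1.08%, 0.267% and 0.901% in WT stage 1, against 5.83%, 31.0% and 15.5% in Bcl6KO stage 0 and 13.3%, 8.46% and 1.59% in WT stage 0. The averaged call was lost in edgeR (adjusted p = 0.0604 to 0.0649) without WT stage 1 library 2 or 3 or Bcl6KO stage 1 library 1 or 3, where the change was -3.71, -3.80, -3.84 and -3.80 on the log2 scale.

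Markers of double-positive thymocytes, the CD4+ CD8+ stage of T cell development, mostly moved in the same direction as Trbv2. Of 8 such markers tested, 6 fell in the averaged stage comparison, where edgeR called 1.42% of all genes lower. Cd4 and Ptcra did not pass the test, and Cd4 differed by 0.52 (SE 0.29, edgeR adjusted p = 0.377), opposite in sign to the 6. Without Cd4 the markers summed to 30.4 to 70.2 CPM in Bcl6KO stage 1, 12.5 to 18.1 in WT stage 1, 657.4 to 857.0 in Bcl6KO stage 0 and 322.4 to 1330 in WT stage 0. With Cd4, which made up most of the stage 1 sums, the level was 445.7 to 972.9 CPM in Bcl6KO stage 1, 201.6 to 590.1 in WT stage 1, 1327 to 1405 in Bcl6KO stage 0 and 539.9 to 1630 in WT stage 0. All 8 were counted in every group except Rag2, which was at 0 in WT stage 1. Rag1, Rag2 and Dntt belong to this list and to that of the joining machinery described below. B cell markers summed to 5.96 to 20.8 CPM in Bcl6KO stage 1, 1.03 to 3.59 in WT stage 1, 22.6 to 164.8 in Bcl6KO stage 0 and 3.54 to 56.9 in WT stage 0. Of the 6 B cell markers 4 were tested and 1 fell in the averaged stage comparison (1.42% of all genes), with Ms4a1 at 0 in both stage 1 groups. Of 6 gamma-delta T cell markers, 3 had a row, and Trdv4 was at 0 in all groups. Trdc, the delta constant segment, stood at 0.794, 0.199 and 17.6 CPM in Bcl6KO stage 1 and 0.399, 0.197 and 0.205 in WT stage 1, against 44.5, 0 and 74.2 in Bcl6KO stage 0 and 0.398, 12.2 and 2.76 in WT stage 0. Sox13, a transcription factor of gamma-delta cells, was distributed otherwise, with 13.1, 5.57 and 7.19 CPM in Bcl6KO stage 1 and 51.2, 136.0 and 112.8 in WT stage 1, against 0, 0.569 and 0 in Bcl6KO stage 0 and 0, 57.1 and 0 in WT stage 0. Their sum ran between 5.76 and 24.8 CPM in Bcl6KO stage 1, 51.6 and 136.2 in WT stage 1, 0.569 and 74.2 in Bcl6KO stage 0 and 0.398 and 69.3 in WT stage 0. The part of these cell types in the Trbv results was not tested.

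Only 11 of the 35 genes had enough counts to be tested, the 10 described singly above and Trbv24, and a segment that is high in 1 group passes that filter through that group. The averaged stage comparison called 1 of the 11, which fell, where 2.04% of all 15704 genes tested were called higher, 1.42% lower and 3.46% in either direction. It had 3 of the 11 and 18.3% of all genes at an unadjusted p under 0.05. The other comparisons called 0 of the 11 with edgeR. At stage 0 edgeR called 0.0191% of all genes between Bcl6KO and WT, and at stage 1 0%. At an unadjusted p under 0.05 stood 2 of the 11 at stage 0, where 14.7% of all genes did, and 1 of the 11 at stage 1, where 2.57% did. The averaged genotype effect called 0.00637% of all genes and had 1 of the 11 and 10.9% of all genes at an unadjusted p under 0.05. The difference between genotype effects called 0% and had 1 of the 11 and 7.78% of all genes at that level. Between stages in Bcl6KO 0.675% of all genes were called (0.420% higher and 0.255% lower), and 2 of the 11 and 16.4% of all genes had an unadjusted p under 0.05. Between stages in WT 0.433% were called (0.0700% higher and 0.363% lower), and 1 of the 11 and 8.4% of all genes had an unadjusted p under 0.05. DESeq2 called 0 of the 11 in the 4 comparisons that involve genotype. Of all genes it called 5.88% at stage 0 and 0.127% at stage 1. The shares were 0.828% for the difference between genotype effects and 2.84% for the averaged genotype effect. It called Trbv2 between stages in Bcl6KO, where it called 8.34% of all genes, and in WT, where it called 2.34%. In the averaged stage comparison it called Trbv2 and Trbv31, and 9.52% of all genes.

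The CPM of the libraries were also compared for overlap between groups. At stage 0, 0 of 11 lay higher in Bcl6KO than in WT (4.67% of all genes) and 1, Trbv13-3, lay lower (7.95%). At stage 1, 0 lay higher (5.87%) and 1, Trbv19, lower (7.44%). Between stages in Bcl6KO, Trbv13-3 lay higher at stage 1 (11.8%) and Trbv2 and Trbv13-1 lower (5.76%). In WT 0 lay higher at stage 1 (12.5%) and 3 lower, Trbv2, Trbv13-2 and Trbv31 (9.06%). The stage comparisons and the genotype comparisons share libraries, so these counts are not independent of each other. The median log2 change of the 11 was -0.75 for the averaged stage effect (0.03 over all genes, 5 of the 11 above 0) and 0.21 for the averaged genotype effect (0.00 over all genes, 7 of the 11 above 0).

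**Figure D5:**
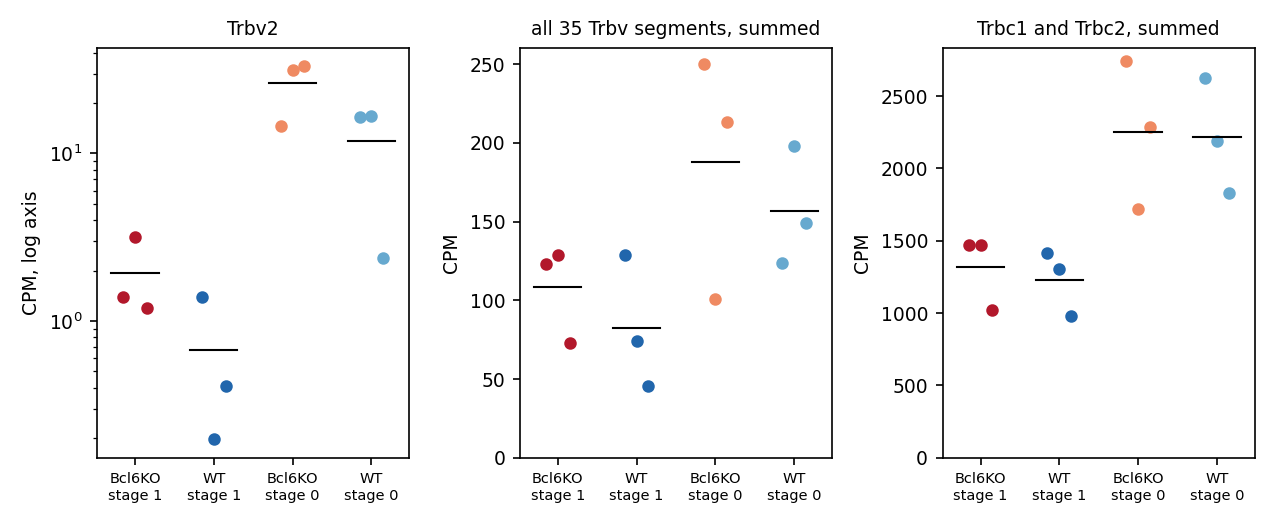
Levels in CPM (y axes) of Trbv2 (left, log axis), of all 35 Trbv segments summed (middle) and of Trbc1 and Trbc2 summed (right), by group (x axes). Points are libraries and lines group means. Trbv2 lies between 0.197 and 3.18 CPM in the stage 1 libraries and between 2.36 and 33.1 CPM in the stage 0 libraries.

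The constant segments, which every beta chain carries whatever its variable segment, were lower at stage 1. Trbc1 stood at 659.7, 612.8 and 444.4 CPM in Bcl6KO stage 1 and 630.7, 565.5 and 371.3 CPM in WT stage 1, against 1190, 654.8 and 1013 CPM in Bcl6KO stage 0 and 1065, 966.5 and 806 CPM in WT stage 0. Trbc1 fell by 0.80 (SE 0.20, edgeR adjusted p = 0.0432) and Trbc2 by 0.82 (SE 0.17, adjusted p = 0.0202) on the log2 scale in the averaged stage comparison. Of the 18 constant, diversity and joining segments of the locus, 15 were tested, and edgeR called only these 2 in that comparison. It called 1.42% of all genes lower there. The Trbc1 call was lost in 11 of the 12 edgeR fits that left out 1 library, all but the one without Bcl6KO stage 0 library 2 (adjusted p = 0.0193 to 0.114, change -0.91 to -0.69). The Trbc2 call was lost in 5, those without Bcl6KO stage 1 library 3, any WT stage 1 library or WT stage 0 library 1 (edgeR adjusted p = 0.0157 to 0.064 over the 12).

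The alpha chain (Trav11, its near copy Trav11d, Traj18 and Trac) and the CD3 signalling subunits had 0 of 4 genes each called by edgeR in any comparison. At an unadjusted p under 0.05 the averaged stage comparison had 1 of 4 alpha chain genes and 0 of 4 CD3 genes, where 18.3% of all genes stood. DESeq2 called Trac there (9.52% of all genes) and between stages in Bcl6KO (8.34% of all genes), and 0 CD3 genes. Trav11 averaged 247.2 ± 51.4 CPM in Bcl6KO stage 1, 260.2 ± 22.8 in WT stage 1, 303.3 ± 69.6 in Bcl6KO stage 0 and 307.3 ± 91.0 in WT stage 0 (SD, n = 3 each). Trav11 and Trav11d had the same count in 10 of 12 libraries, so their levels are uncertain. Ptcra, the surrogate alpha chain that pairs with a newly joined beta chain before the alpha chain is made, was counted in every library at 4.38 to 12.2 CPM and passed no test.

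Of 12 genes of the machinery that joins receptor segments, 3 fell in the averaged stage comparison, where edgeR called 1.42% of all genes lower. Rag1, a subunit of the recombinase that cuts at segment borders, stood at 0.199, 0.199 and 0 CPM in Bcl6KO stage 1 and 4.38, 4.74 and 0.205 CPM in WT stage 1, against 128.4, 129.7 and 339.5 CPM in Bcl6KO stage 0 and 50.5, 491.2 and 135.8 CPM in WT stage 0. Every stage 1 library lay below every stage 0 library. Rag1 fell by 8.24 on the log2 scale (SE 0.86, edgeR adjusted p = 2.58e-04) and Dntt, which adds bases at the joins, by 7.18 (SE 1.05, adjusted p = 0.00308). Rag2, the other recombinase subunit, was at 0 in all WT stage 1 libraries and was called lower (adjusted p = 0.02), a call lost in 4 of 12 edgeR fits that left out 1 library, those without Bcl6KO stage 1 library 1 or any WT stage 1 library (adjusted p up to 0.0602). Between genotypes edgeR and DESeq2 called 0 of the 12 at either stage. Of all genes edgeR called 0.0191% at stage 0 and 0% at stage 1, and DESeq2 5.88% and 0.127%. At an unadjusted p under 0.05 there were 2 of the 12 at stage 0 (14.7% of all genes) and 2 at stage 1 (2.57% of all genes), Rag1 and Rag2, whose differences at stage 1 had opposite signs. Of 10 neighbours of the locus that are no receptor genes 2, Ephb6 and Trpv6, were tested, and edgeR called 0 in any comparison. In the averaged stage comparison both had an unadjusted p under 0.05 (18.3% of all genes) and DESeq2 called both (9.52% of all genes).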

How the data were processed

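RNA was prepared with a QIAGEN micro kit and libraries with NuGEN Ovation Ultralow reagents, per the labels' protocols. The authors deposited raw read counts per gene, 1 table per library, with Ensembl gene IDs. The submitters' processing notes name bcl2fastq, TopHat2, Bowtie2, DESeq and mm10. Not given in the sources used here: tool versions, counting program, annotation, strand setting and the handling of multiply matching reads. Chromatin accessibility libraries were not analysed here.

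IDs were named from GENCODE M21, in which 48312 of 48672 matched. Shares are a segment's counts divided by all Trbv counts of the library. The 5 iNKT-typical segments were compared by exact permutation tests, two-sided, stratified where 2 stages or genotypes were averaged (smallest p 0.005), with Benjamini-Hochberg adjustment over 5 segments. Levels were tested on counts with edgeR 4.0.16 (R 4.3.3; TMM, filterByExpr by group, robust quasi-likelihood F-test, all 12 libraries in 1 fit, 8 residual degrees of freedom), with adjustment over 15704 genes and a threshold of 0.05, after a check on simulated counts. The common biological coefficient of variation was 0.835. DESeq2 1.42.0 was an alternative, beside RLE scaling, no filter, a replicate block, non-robust dispersion, Sp100 left out, 2-group fits, each library left out, functional segments only, length scaling and pooled counts. The comparison at equal depth was chosen after seeing the data.

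Segments given in full were the 5 iNKT-typical ones, the 5 others of highest mean share over 12 libraries and any past the threshold. Other genes were counted as fixed lists, with values for up to 2 by lowest p; the values of some listed markers are not reported here. Members and lists were chosen with earlier results of these data known. Intervals are exact Clopper-Pearson at 95%. Within each group, every pair of libraries differed by more than sampling noise (chi-square per gene 27.6 to 170.0). Pairs from different groups were not compared this way. Figures used matplotlib 3.10.9 with Python 3.11.15.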

Additional observations from a re-analysis of the deposited data

How the results depend on the processing

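Counts of called genes depended on the tool and the filter. In the order Bcl6KO against WT at stage 0, the same at stage 1, stage 1 against stage 0 in WT, the same in Bcl6KO, the difference of genotype effects, the averaged genotype effect and the averaged stage effect, edgeR called 3, 0, 68, 106, 0, 1 and 544 genes. Without the filter it called 103, 11, 142, 309, 7, 88 and 830, and DESeq2 called 924, 20, 368, 1309, 130, 446 and 1495. Fits of 2 groups alone called 0 at stage 0 and 3 between stages in Bcl6KO. Leaving out 1 library gave 0 to 133, 0 to 1, 20 to 139, 7 to 277, 0 to 0, 0 to 62 and 193 to 708. The counts of 133, 277, 62 and 708 all came without Bcl6KO stage 0 library 1. The cause was not tested.

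Libraries with the same replicate number showed little correlation between groups (correlations of deviations -0.075 to 0.12). The labels do not say that these numbers pair libraries, and correlations from 3 libraries per group cannot exclude it. With the replicate block 1 gene was called at stage 0 and 39 between stages in Bcl6KO, the averaged genotype effect on Trbv1 became -0.37 (edgeR adjusted p = 0.968), and the averaged stage differences in share had an exact p of 0.0625 for Trbv29 (7.06 points) and 0.0312 for Trbv1 (6.51 points).

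With functional segments only, the Bcl6KO against WT differences at stage 1 became 0.571 points for Trbv13-1 and 7.00 for Trbv13-2, and the averaged genotype difference of Trbv13-1 became 2.66 (exact p = 0.04). Length scaling gave -2.58 points for Trbv13-3 (averaged genotype, exact p = 0.045) and -0.279 for Trbv13-2 (averaged stage). DESeq2 called Trbv2 in WT (-4.17) and Bcl6KO (-3.82) and Trbv31 over both (-4.01). Without robust dispersion the Trbc1 call was lost (edgeR adjusted p = 0.0525).

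Leaving out 1 library also turned some small differences in share. The Bcl6KO against WT difference ran, in percentage points, between -2.91 and 3.19 at stage 0 for Trbv1, and at stage 1 between -1.41 and 1.42 for Trbv13-1, -9.04 and 7.51 for Trbv13-2 and -2.87 and 0.372 for Trbv13-3. Stage 1 against stage 0 ran in WT between -1.97 and 0.184 for Trbv13-1, -13.8 and 2.70 for Trbv13-2 and -1.32 and 1.92 for Trbv13-3, and in Bcl6KO between -0.451 and 15.8 for Trbv13-2 and -1.79 and 7.60 for Trbv1. The averaged genotype difference ran between -4.87 and 0.172 for Trbv1, and the averaged stage difference between -3.24 and 5.12 for Trbv13-2. Other differences kept their sign while the unadjusted p crossed 0.05. By exact permutation tests these were the averaged genotype difference of Trbv13-1 (1.57 to 2.99, p = 0.025 to 0.32), Trbv13-3 (-3.18 to -1.56, p = 0.01 to 0.19) and Trbv29 (-5.85 to -2.57, p = 0.03 to 0.22), and the averaged stage difference of Trbv13-1 (-3.93 to -2.60, p = 0.02 to 0.08) and Trbv13-3 (0.608 to 2.23, p = 0.005 to 0.575).

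For levels, the log2 change without 1 library ran between -0.64 and 0.88 for Trbv13-3 (Bcl6KO against WT, stage 1) and -0.21 and 1.43 for the difference of genotype effects on Trbv2. The averaged genotype change ran between -0.12 and 0.43 for Trbv13-2, -0.80 and 0.58 for Trbv1, -0.37 and 0.58 for Trbv12-2, -0.60 and 2.92 for Trbv31, -4.50 and 0.49 for Trbv19, -0.033 and 0.17 for Trbc1 and -0.028 and 0.14 for Trbc2. The averaged stage change ran between -0.74 and 1.34 for Trbv1, -7.86 and 0.56 for Trbv11 and -1.77 and 0.93 for Trbv24. None of these passed a threshold in the full set of libraries.

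Of the values given with no test, summed shares, Trbv level and segments detected moved by less than 1 SD in all 24 recalculations by other settings. The effective number of segments was recalculated only by leaving out 1 library. All of these values moved by less than 1 SD in the 48 recalculations that left out 1 library. Leaving out 1 of 3 libraries cannot move their mean by 1 SD, so those 48 do not measure stability. Without 1 library the mean summed iNKT-typical share of Bcl6KO stage 0 ran between 42.28% and 60.81%. Depth limits the shares most in WT stage 1 library 3, whose 222 Trbv counts leave an undetected segment up to 1.35%.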

Other observations

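Prss2, a trypsinogen gene that lies within the span of the Trbv cluster, was looked up after its values were seen. It had 0 CPM in all 3 Bcl6KO stage 1 libraries and 1.40, 0 and 0.615 CPM in WT stage 1, against 12.6, 2.09 and 11.6 CPM in Bcl6KO stage 0 and 0, 0.591 and 0 CPM in WT stage 0. Every Bcl6KO stage 0 library lay above every other library of the series. It is among the 8 locus neighbours that had too few counts to be tested.

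Of the iNKT markers, Icos, a costimulatory receptor, rose by 2.27 on the log2 scale in the averaged stage comparison (edgeR adjusted p = 2.58e-04), and Zbtb16, which encodes the transcription factor PLZF, rose by 2.26 (adjusted p = 0.0133). Egr2, a transcription factor induced by receptor signalling, fell in the same comparison. The other 4 of the 7 did not pass the test. Of all genes, edgeR called 2.04% higher and 1.42% lower in that comparison.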
